A study of Homo sapiens with 6 samples.

Results

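The nuclear genes of the mitochondrial respiratory chain and ATP synthase were read in PC-3/Mc cells and set against those of PC-3/S cells. Both are sublines of PC-3, an established cell line of human prostate carcinoma. A probe set, the group of short probes that reads a transcript on the array, was taken as a member when its platform annotation gave a single symbol that begins with NDUFA, NDUFB, NDUFC, NDUFS, NDUFV, UQCR, ATP5 or COX4 to COX8, or the symbol SDHA, SDHB, SDHC, SDHD or CYC1. The rule took 174 of 54675 probe sets, which stand for 91 of the 19775 genes measured. Of these genes, 72 are counted as subunits: 33 of complex I, 3 of complex II, 7 of complex III, 11 of complex IV and 18 of complex V, the ATP synthase. The counts include COX7A2L, a supercomplex factor placed with complex IV, and ATP5IF1, an inhibitor placed with complex V. A further 8 are complex I assembly factors (NDUFAF genes), 6 are tissue-restricted paralogs of complex IV subunits, and 5 are pseudogenes, antisense RNAs or a divergent transcript. SDHB and UQCRFS1 are not analysed here, and NDUFS5, NDUFS8, NDUFC2 and UQCRH were left out because their probe sets name more than 1 gene.

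The respiratory chain passes electrons from NADH (complex I) and succinate (complex II) through ubiquinone, complex III and cytochrome c to oxygen at complex IV, and the protons pumped on the way drive ATP synthase. Most subunits are encoded in the nucleus, made in the cytosol and imported, while a few core subunits are encoded by mitochondrial DNA. Complex IV is unusual in that several of its nuclear subunits exist as paralogs, a form found in most tissues and another that is restricted to muscle, lung or testis.

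The study concerns the epithelial-mesenchymal transition and tumor-initiating traits. The labels name no treatment for either line, and each was hybridised to 3 one-colour Affymetrix arrays from RNA of subconfluent cells. The titles call the arrays of a line biological replicates but do not say whether these came from separate cultures. The p-values therefore reflect the spread among these arrays alone, and that spread may be technical. Array medians lay between 4.98 and 5.09 on the log2 scale. The 3' minus 5' reading of the GAPDH control, a sign of RNA quality, was -0.033 ± 0.066 in PC-3/Mc against 0.041 ± 0.031 in PC-3/S (SD, n = 3 arrays per line, exact permutation p = 0.3, where 0.1 is the smallest possible). PC-3 cells are known to lack the gene CTNNA1, and its highest reading on 5 probe sets, 5.18, served as a rough floor below which a value may be background. Of 5 epithelial markers, KRT8, KRT18, EPCAM and CDH1 were higher and KRT19 lower in PC-3/Mc, and all read above the floor except CDH1 in PC-3/S. Of the 91 members 86 read above it in at least 1 line, and values of different genes are not set against each other, because probes differ in efficiency. In these bulk cultures, fewer cells that express a gene and less RNA per cell cannot be told apart.

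Across the 72 subunits the lines differed by little, and in both directions. In PC-3/Mc 33 subunit genes were higher, 16 were lower and 23 were not called (limma over all 19775 genes, Benjamini-Hochberg adjusted p under 0.05). The median difference, taken as PC-3/Mc minus PC-3/S in log2 units, was 0.16 for the subunits, -0.03 for all genes and 0.07 for the 1620 genes with a mean level of 10 or more. Between 2 lines that differ this widely, many genes are called: 23.2% of all genes were higher and 22.7% lower, and of the bright genes 40.7% were higher and 29.0% lower. The subunits' shares of 45.8% higher and 22.2% lower lie near those of bright genes, and 64 of the 72 subunits are themselves of that level. Groups of arrays did not overlap for 62 of the 72 subunits (86.1%), against 53.1% of all genes and 82.9% of bright genes. Read from the brightest probe set of each gene, none of the subunits differed 2-fold, the largest fold being 1.92, whereas 10.4% of bright genes did. Dimmer probe sets did, higher in PC-3/Mc for COX5A, UQCR10 and ATP5MJ and lower for SDHC, as given with those genes. The median absolute difference was 0.34 for subunits and 0.38 for bright genes.

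**Figure D1:**
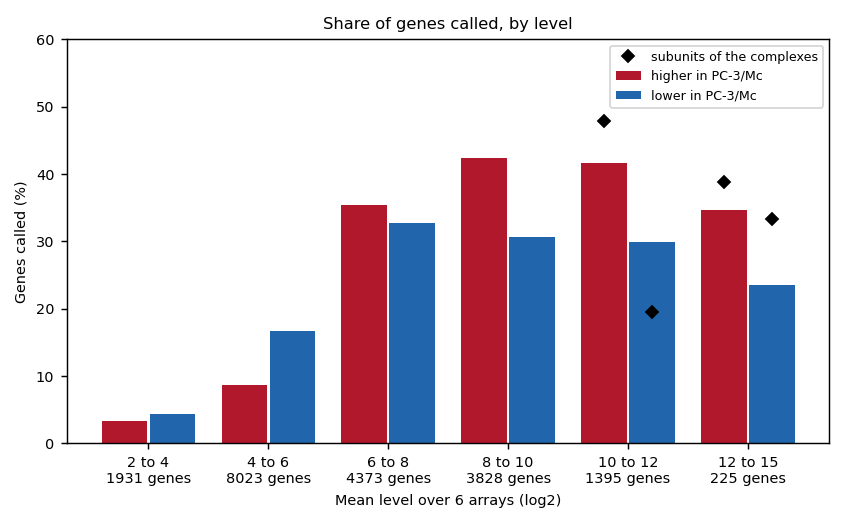
Share of all genes called higher (red bars) or lower (blue bars) in PC-3/Mc, by mean level over the 6 arrays (log2), with the share of subunits as diamonds in the bins that hold at least 10 subunits. Between levels 10 and 12, 22 of 46 subunits were higher and 9 lower; between 12 and 15, 7 of 18 were higher and 6 lower.

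Complex I, the NADH dehydrogenase, leaned towards PC-3/Mc: 17 of 33 subunits were higher, 4 were lower and 12 were not called, with a median difference of 0.27. The 5 core subunits measured carry the electron path. NDUFV1, which oxidises NADH, read 10.84, 10.66 and 10.77 in PC-3/Mc against 10.19, 10.23 and 10.16 in PC-3/S. The PC-3/Mc arrays lay above every PC-3/S array, and the difference was 0.56 ± 0.08 (SE, adjusted p = 1.44e-04). NDUFS1, the large iron-sulfur subunit, was higher by 0.53 ± 0.08, and NDUFS3, another subunit of the matrix arm, by 0.50 ± 0.08. NDUFV2, an iron-sulfur subunit, differed by 0.08 and was not called. NDUFS7, which carries the last iron-sulfur cluster before ubiquinone, was the core subunit that was lower. It read 8.79, 8.65 and 8.82 in PC-3/Mc against 9.37, 9.29 and 9.33 in PC-3/S, without overlap, a difference of -0.58 ± 0.08. Its other probe set, just above the floor, differed by 0.14 and was not called.

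Among the accessory subunits of complex I the largest difference was that of NDUFAB1, the mitochondrial acyl carrier protein, which also serves fatty acid and lipoic acid synthesis. It read 12.14, 12.01 and 12.18 in PC-3/Mc against 11.25, 11.24 and 11.32 in PC-3/S. The arrays of the lines stood clear of each other, at 1.79-fold (difference 0.84 ± 0.08, adjusted p = 7.17e-06). NDUFA9, which sits at the junction of the arms near the ubiquinone site, was at 10.55, 10.41 and 10.46 in PC-3/Mc against 9.68, 9.68 and 9.76 in PC-3/S, 1.70-fold higher. NDUFB10 and NDUFA8, both subunits of the membrane arm, were higher by 0.72 and 0.57. In the NDUFA series 8 of 13 genes were higher and 3 lower. The 8, which also count among the higher genes of complex I, include NDUFA7, whose probe sets were called in opposite directions. In the NDUFB series, whose products line the distal membrane arm, 5 of 11 were higher and 6 were not called.

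NDUFA3, a small membrane-arm subunit, was the accessory subunit most clearly lower. It read 10.47, 10.38 and 10.40 in PC-3/Mc against 11.01, 11.04 and 11.02 in PC-3/S, which is a difference of -0.61 ± 0.07 (adjusted p = 4.47e-05), and the lines did not overlap. NDUFA2, a subunit of the matrix arm, differed by -0.42 ± 0.08. NDUFA11, a membrane-arm subunit, differed by -0.31 ± 0.08; 2 of its 3 probe sets read lower, and the remaining one, near the floor, differed by 0.02. At the opposite end, NDUFA6 read 10.89, 10.92 and 10.90 in PC-3/Mc against 10.87, 10.87 and 10.96 in PC-3/S, so that the lines overlapped and the difference rounded to 0.00 ± 0.07. A dimmer probe set of NDUFA6 was nevertheless higher by 0.55 ± 0.08. The count of lower genes in complex I depended on the variance model, with 8 called in place of 4 when the prior variance followed the level.

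**Figure D2:**
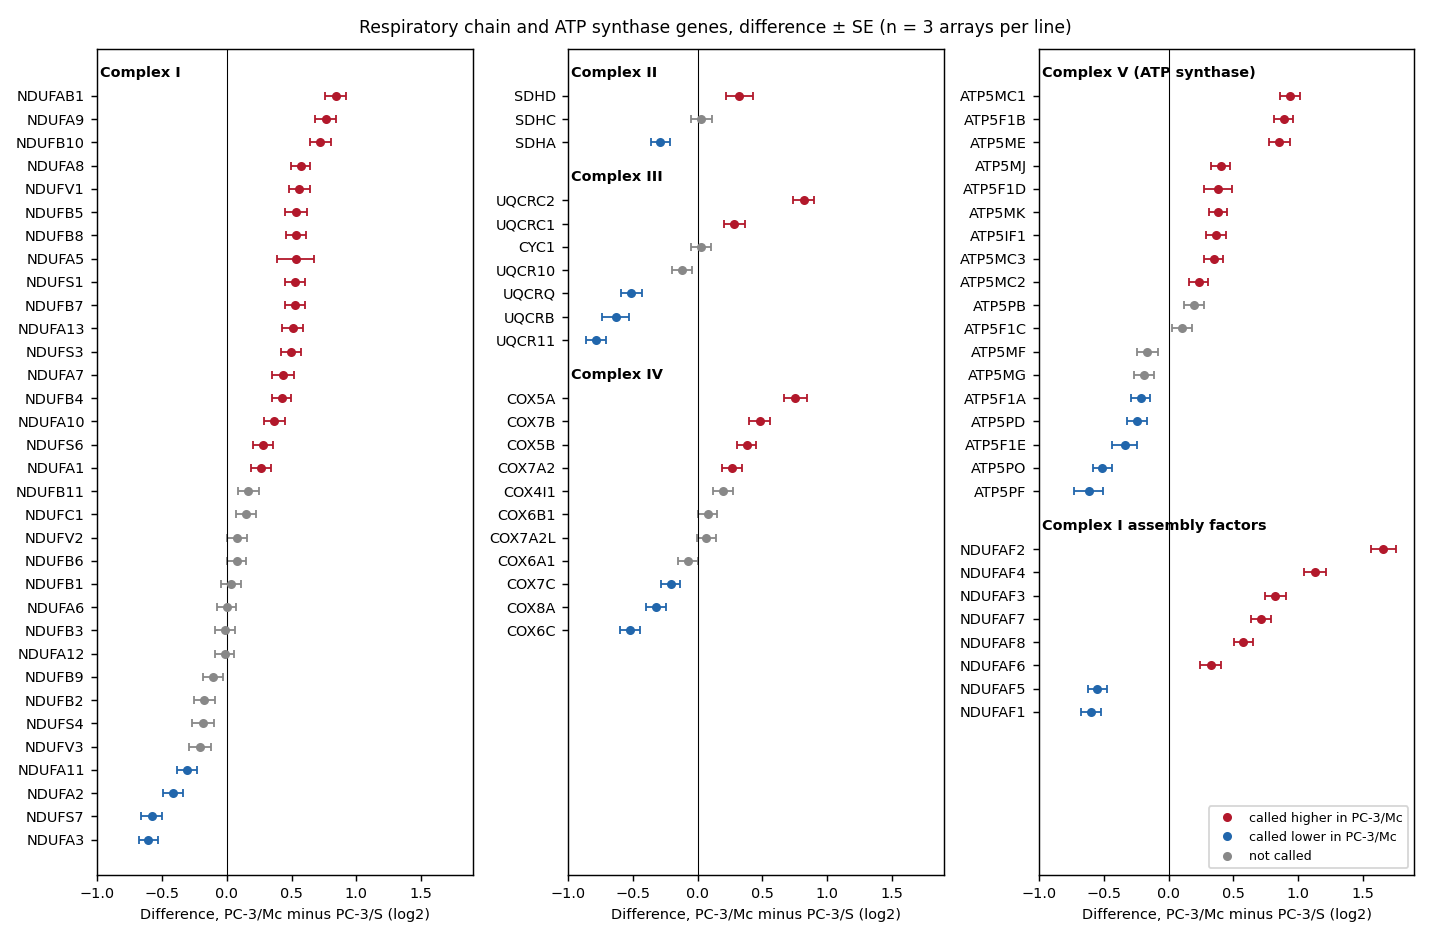
Difference, PC-3/Mc minus PC-3/S (log2), for each subunit gene and each complex I assembly factor, by complex, with bars of 1 SE from the fit over all genes. Red genes were called higher and blue genes lower in PC-3/Mc; subunits lie within 0.94 of 0, and NDUFAF2 (1.66) and NDUFAF4 (1.13) lie beyond 1.

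The NDUFAF assembly factors help build complex I without being part of it: 6 of 8 were higher, 2 were lower, and the median difference was 0.65. Their median level was 9.19, and of all genes between levels 8 and 10, 42.3% were higher and 30.7% lower. NDUFAF2, which binds a late assembly intermediate, read 9.91, 9.93 and 9.87 in PC-3/Mc against 8.26, 8.05 and 8.43 in PC-3/S. No array of a line came near the other line, and the level was 3.16-fold higher (difference 1.66 ± 0.10, adjusted p = 1.98e-07). NDUFAF4, which acts early in assembly together with NDUFAF3, read 9.88, 9.93 and 9.81 in PC-3/Mc against 8.68, 8.66 and 8.87 in PC-3/S. It was 2.19-fold higher, and its second probe set differed by 0.87 in the same direction. NDUFAF3 was higher by 0.83 ± 0.08 and NDUFAF7, an arginine methyltransferase, by 0.71 ± 0.08. NDUFAF8 and NDUFAF6 were higher by 0.58 and 0.32.

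The 2 assembly factors that were lower act on different steps. NDUFAF1, a factor for the membrane arm, read 8.53, 8.41 and 8.52 in PC-3/Mc against 9.14, 9.08 and 9.05 in PC-3/S, which is a difference of -0.60 ± 0.08 (adjusted p = 7.19e-05). NDUFAF5, which hydroxylates an arginine of NDUFS7, differed by -0.55 ± 0.07. Neither gene's arrays overlapped between the lines. Over the 8 factors, the mean deviation from each gene's mean was 0.29, 0.25 and 0.23 on the PC-3/Mc arrays and -0.26, -0.30 and -0.20 on the PC-3/S arrays, so no single array carried the difference.

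Complex II, succinate dehydrogenase, is the only complex whose subunits are all nuclear, and it also belongs to the citrate cycle. Its 3 measured genes went different ways. SDHA, the flavoprotein that oxidises succinate, read 10.26, 10.22 and 10.28 in PC-3/Mc against 10.53, 10.58 and 10.51 in PC-3/S. It was lower without overlap, by -0.29 ± 0.07 (adjusted p = 0.00756). SDHD, a membrane anchor, read 10.72, 10.97 and 10.63 in PC-3/Mc against 10.41, 10.35 and 10.60 in PC-3/S. The lowest PC-3/Mc array lay just above the highest PC-3/S array, and the difference of 0.32 ± 0.11 was called at an adjusted p of 0.0305. The call was lost without PC-3/Mc replicate 1 or 2 or PC-3/S replicate 1 or 2 (adjusted p = 0.0506 to 0.114), and also under quantile normalization (0.0583), with a replicate block (0.0802) and with the mean of its probe sets (0.359). SDHC, the other anchor, differed by 0.03 ± 0.08 on its brightest probe set and was not called. Of its 7 probe sets 1, at 5.25 ± 0.24 in PC-3/Mc against 6.40 ± 0.20 in PC-3/S, was lower by -1.15 ± 0.13, and the mean over all 7 differed by -0.21, which was called.

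Complex III, the ubiquinol-cytochrome c reductase, split by type of subunit. The core proteins UQCRC1 and UQCRC2 were higher, and 3 of the 4 small accessory subunits were lower. UQCRC2 read 11.21, 11.27 and 11.11 in PC-3/Mc against 10.32, 10.37 and 10.44 in PC-3/S. The lines were well apart, at 1.77-fold (difference 0.82 ± 0.08, adjusted p = 8.91e-06), and a second probe set gave 0.89 ± 0.09. UQCRC1 was higher by 0.28 ± 0.08; it was not called when PC-3/S replicate 2 was left out, which left 1 of 7 complex III genes higher. CYC1, the haem-bearing cytochrome c1, read 11.57, 11.47 and 11.57 in PC-3/Mc against 11.47, 11.49 and 11.56 in PC-3/S, with overlap and a difference of 0.03 ± 0.08.

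UQCR11, the smallest of these accessory subunits, had the largest fall of any subunit gene. Its values were 10.21, 10.29 and 10.33 in PC-3/Mc against 11.02, 11.07 and 11.12 in PC-3/S, 1.73-fold lower (difference -0.79 ± 0.08, adjusted p = 8.15e-06). The ranges were separate, and the second probe set also read lower, by -0.17, but was not called. UQCRB, which lies beside a ubiquinone site, read 11.20, 11.26 and 10.98 in PC-3/Mc against 11.76, 11.66 and 11.93 in PC-3/S. Its 3 probe sets above the floor were all lower, by -0.63 to -0.71. UQCRQ, another small subunit, was lower by -0.51 ± 0.08. UQCR10 differed by -0.12 on its brightest probe set and was not called, while a dimmer one, at 7.77 ± 0.04 in PC-3/Mc against 6.68 ± 0.11 in PC-3/S, was higher by 1.09 ± 0.09.

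Complex IV, cytochrome c oxidase, had 4 of 11 genes higher, 3 lower and 4 not called, a median of 0.08. COX5A, a matrix-side subunit, read 11.98, 11.98 and 11.91 in PC-3/Mc against 11.14, 11.13 and 11.35 in PC-3/S. It was 1.69-fold higher without overlap (difference 0.75 ± 0.09, adjusted p = 2.63e-05), and its dimmer probe set was higher by 1.26 ± 0.08. COX7B, COX5B and COX7A2 were higher by 0.48, 0.38 and 0.26. COX6C, a membrane subunit, read 12.24, 12.26 and 12.15 in PC-3/Mc against 12.75, 12.71 and 12.76 in PC-3/S, which is a difference of -0.52 ± 0.08 with no overlap. COX8A and COX7C were lower by -0.32 and -0.21. COX7C lost its call when any single array was left out (adjusted p = 0.0625 to 0.12), and COX7A2 without PC-3/Mc replicate 2, PC-3/S replicate 1 or PC-3/S replicate 2 (0.0595 to 0.0687). COX4I1, the largest nuclear subunit, was higher by 0.20 ± 0.08 on its brightest probe set, which was not called (adjusted p = 0.0593); over all probe sets a second one was higher by 0.27 ± 0.08 and another, near the floor, was lower by -0.45 ± 0.11. COX6A1 and COX6B1 differed by -0.07 ± 0.08 and 0.08 ± 0.08. COXFA4, the complex IV subunit long known as NDUFA4, falls outside the rule under its present symbol; it averaged 11.61 ± 0.12 in PC-3/Mc against 12.22 ± 0.11 in PC-3/S (difference -0.61 ± 0.09, adjusted p = 2.34e-04).

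Of the tissue-restricted paralogs, COX7B2, the testis-type counterpart of COX7B, was by far the member that differed most. Its only probe set read 4.31, 4.21 and 4.34 in PC-3/Mc against 10.85, 10.84 and 10.94 in PC-3/S. All PC-3/Mc arrays lay below the floor and all PC-3/S arrays far above it. The measured difference was -6.59 ± 0.08 (adjusted p = 7.69e-12). With PC-3/Mc raised to the floor, the level was at least 52.0-fold lower in PC-3/Mc if the CTNNA1 floor holds. COX7B itself, on the X chromosome, read 12.28, 12.29 and 12.20 in PC-3/Mc against 11.86, 11.68 and 11.79 in PC-3/S, so that the pair ran in opposite directions. Of 6 testis germ cell markers (PRM1, PRM2, TNP1, DDX4, LDHC and ACR), 2 read above the floor in each line, and the highest mean was 5.51 (LDHC in PC-3/Mc). Their summed linear signal was 189 to 194 in PC-3/Mc against 171 to 184 in PC-3/S. DDX4 and LDHC were called higher in PC-3/Mc, by 0.62 and 0.40, and the other markers were not called. DDX4, a germ cell marker, was under the floor in both lines, and LDHC was under it in PC-3/S.

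The genes beside COX7B2 on chromosome 4, in the RefSeq order of GRCh38.p14, did not share its pattern. On either side lie genes of GABA-A receptor subunits: GABRA2, GABRG1, GABRA4 and GABRB1 read below the floor in both lines and were not called. Farther out, GUF1, a mitochondrial translation factor, was higher by 1.14 ± 0.13, and ATP10D and COMMD8 were higher by 0.61 ± 0.09 and 0.29 ± 0.09. GNPDA2, CORIN and LINC02475 were not called. No gene among the 5 on each side was called lower.

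The 250 bases before the transcription start of COX7B2 and COX7B, from RefSeq on GRCh38.p14, show how the paralogs differ at the start site. COX7B2 (chr4:46909246-46909495, minus strand) has 5 CpG dinucleotides there and COX7B (chrX:77899218-77899467, plus strand) has 13, at the same GC content of 43.2%. Capitals mark a CCAAT box in either orientation, the only one of 5 motifs searched (named with the subunit promoters) that occurs in either window.
COX7B2: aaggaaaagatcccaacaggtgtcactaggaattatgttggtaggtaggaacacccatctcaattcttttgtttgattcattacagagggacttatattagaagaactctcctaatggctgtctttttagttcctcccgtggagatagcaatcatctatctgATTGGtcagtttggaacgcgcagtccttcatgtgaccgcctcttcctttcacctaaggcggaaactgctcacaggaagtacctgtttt
COX7B: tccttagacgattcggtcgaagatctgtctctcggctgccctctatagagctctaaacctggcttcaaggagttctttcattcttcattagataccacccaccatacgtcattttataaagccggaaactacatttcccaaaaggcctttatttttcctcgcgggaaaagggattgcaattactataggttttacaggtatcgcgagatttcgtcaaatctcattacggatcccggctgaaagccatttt

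The other paralogs were dim in both lines. COX4I2, the lung form of COX4, read 5.87 ± 0.03 in PC-3/Mc against 5.95 ± 0.11 in PC-3/S and was not called. COX6A2 and COX7A1, the forms of striated muscle, differed by -0.11 ± 0.11 and 0.06 ± 0.08. COX8C and COX6B2, testis forms, were called lower, by -0.33 ± 0.09 and -0.28 ± 0.08, but their means lay at or under the floor or within rounding of it in both lines, so these differences may lie within background, and both calls were lost without PC-3/S replicate 2. COXFA4L2, the paralog of COXFA4 that hypoxia induces, was not called (-0.11 ± 0.10). COX7B2 was the 1 paralog of 6 with a reading far above the floor.

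**Figure D3:**
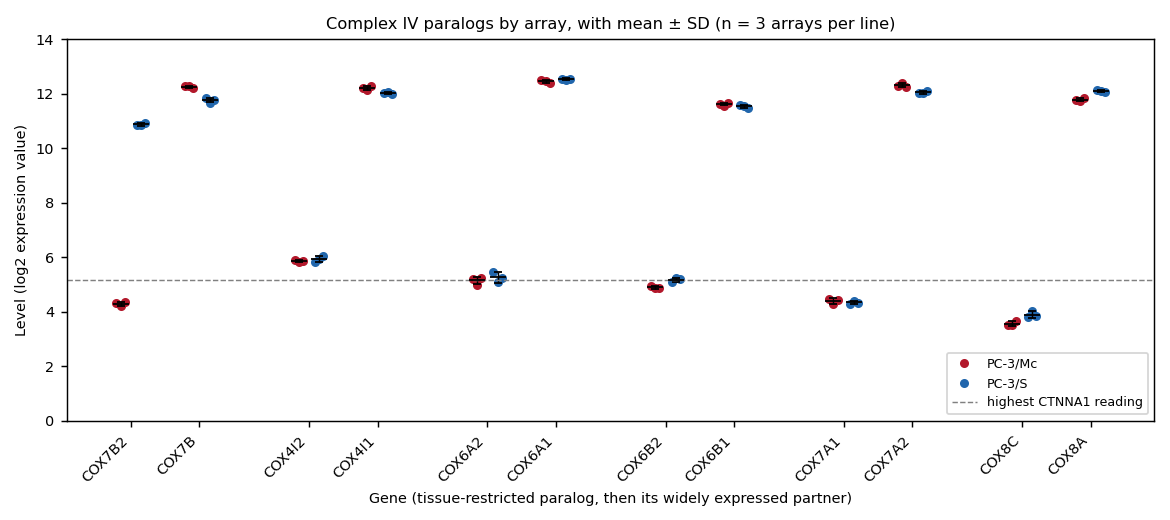
Levels (log2 expression value) of 6 tissue-restricted complex IV paralogs, each followed by its widely expressed partner, on the 3 PC-3/Mc arrays (red) and the 3 PC-3/S arrays (blue), with mean ± SD. The dashed line is the highest CTNNA1 reading (5.18); COX7B2 lies below it in PC-3/Mc and reaches a mean of 10.88 in PC-3/S, while COX4I2 lies somewhat above it and the others near or below it in both lines. Levels of different genes come from different probes and are not comparable.

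In complex V, 9 of 18 genes were higher, 5 were lower and 4 were not called, with a median of 0.21. The 9 include ATP5IF1, whose probe sets disagreed. None of the 18 had overlapping arrays between the lines, a trait shared by 53.1% of all genes and 82.9% of bright genes. The 18 include ATP5MF, which was not called and read under the floor in both lines. The parts of the enzyme differed. All 3 genes of the c ring, the rotor in the membrane, were higher: their mature products are identical, and ATP5MC1 differed most. It read 12.03, 11.95 and 12.09 in PC-3/Mc against 11.07, 11.12 and 11.06 in PC-3/S, clearly apart at 1.92-fold (difference 0.94 ± 0.08, adjusted p = 2.15e-06), the largest of any subunit gene. ATP5MC3 and ATP5MC2 were higher by 0.35 and 0.23.

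In F1, the catalytic head, ATP5F1B, the catalytic beta subunit, read 13.25, 13.22 and 13.29 in PC-3/Mc against 12.40, 12.36 and 12.32 in PC-3/S. The groups were far apart relative to their spread, at 1.85-fold (0.89 ± 0.07, adjusted p = 2.37e-06). Its partner in the head, ATP5F1A, the alpha subunit, went the other way: 12.71, 12.71 and 12.71 in PC-3/Mc against 12.93, 12.92 and 12.92 in PC-3/S, which is a difference of -0.22 ± 0.07 (adjusted p = 0.03) with no overlap. ATP5F1D, the delta subunit, was higher by 0.38 ± 0.11 and ATP5F1E, the epsilon subunit, lower by -0.34 ± 0.10, and ATP5F1C, the gamma subunit, differed by 0.11 and was not called.

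Read from the brightest probe sets, the stalk that holds the head still was the part with no gene called higher. There 3 of 4 genes were lower. ATP5PF, coupling factor 6, read 11.26, 11.49 and 11.19 in PC-3/Mc against 11.85, 11.81 and 12.13 in PC-3/S, which is a difference of -0.62 ± 0.11 (adjusted p = 8.26e-04). ATP5PO, the subunit that joins stalk to head, read 11.86, 11.82 and 11.90 in PC-3/Mc against 12.35, 12.38 and 12.38 in PC-3/S, which is a difference of -0.51 ± 0.07. Neither overlapped between the lines. ATP5PD was lower by -0.24 ± 0.08, and ATP5PB differed by 0.19 ± 0.08 and was not called. Dimmer probe sets of the stalk genes were less clear. That of ATP5PO at 8.216 ± 0.130 in PC-3/Mc against 8.311 ± 0.145 in PC-3/S differed by -0.095 and was not called. That of ATP5PD, near the floor, differed by 0.069 and was not called. That of ATP5PB was called higher, by 0.56 ± 0.16, although it read under the floor in PC-3/S. Of the small membrane subunits, ATP5ME read 11.38, 11.43 and 11.37 in PC-3/Mc against 10.53, 10.46 and 10.62 in PC-3/S, 1.81-fold higher without overlap, and its second probe set was higher by 0.70. ATP5MJ was higher by 0.40 on its brightest probe set and by 1.01 ± 0.08 on the other, at 11.01 ± 0.04 in PC-3/Mc against 10.01 ± 0.05 in PC-3/S. ATP5MK was higher by 0.38, ATP5MG differed by -0.19 and was not called, and ATP5MF read under the floor in both lines on its only single-symbol probe set.

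ATP5IF1, the inhibitor that blocks the enzyme from running backwards, gave opposite answers on different probe sets. The brightest, at 10.68 ± 0.08 in PC-3/Mc against 10.32 ± 0.01 in PC-3/S, was higher by 0.37 ± 0.08, and another, at 7.34 ± 0.11 in PC-3/Mc against 7.91 ± 0.05 in PC-3/S, was lower by -0.57 ± 0.09, so that no direction can be given for this gene. The count of lower genes in complex V moved with single arrays: 3 in place of 5 when either replicate numbered 2 was left out, and 2 when PC-3/S replicate 3 was. ATP5F1A lost its call when any array other than PC-3/Mc replicate 3 was left out (adjusted p = 0.0599 to 0.093), ATP5PD without either replicate 2 or PC-3/S replicate 3 (0.0646 to 0.07), and ATP5F1E without PC-3/S replicate 3 (0.0594). All 5 kept a negative difference in each of these fits.

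**Figure D4:**
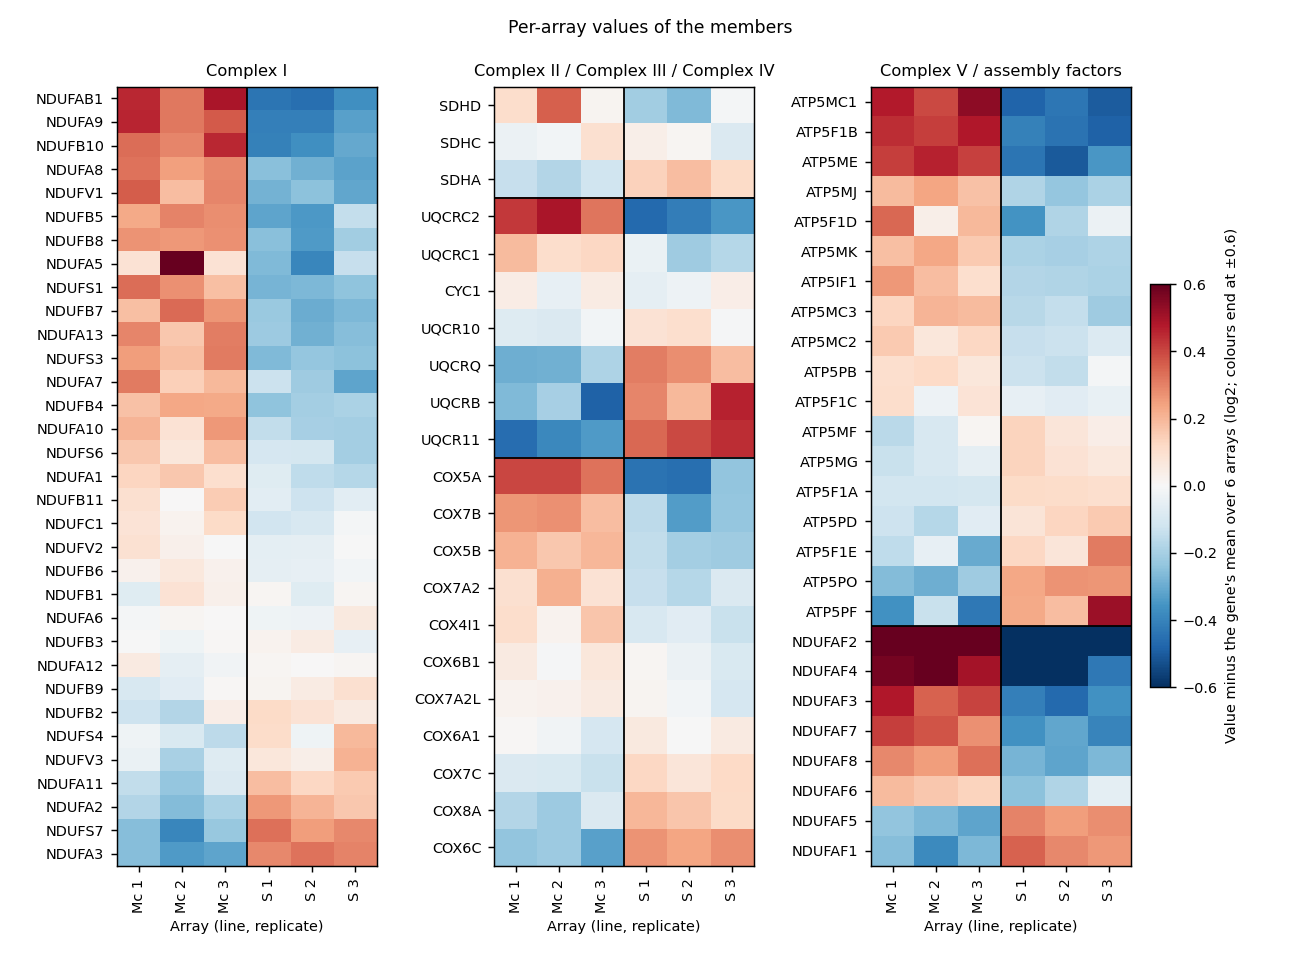
Value of each gene on each array minus the gene's mean over the 6 arrays (log2), with PC-3/Mc replicates 1 to 3 left and PC-3/S replicates 1 to 3 right of the black line; colours end at ±0.6. Within a line the arrays are much alike; NDUFA5 on the second PC-3/Mc array (10.28, against 9.75 on each of the others) is the widest spread among the members.

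Because a gene can have several probe sets, all 174 were also tested one by one. Of these 62 were higher (35.6%) and 30 were lower (17.2%), where 18.4% of all 54613 probe sets were higher and 17.5% lower. These shares are not matched for level: the median level was 9.62 for member probe sets and 5.05 for all. By gene, 42.3% between levels 8 and 10 were higher and 30.7% lower, against 8.6% and 16.7% between 4 and 6. In their mean over the 6 arrays, 36 of the 174 lay at or under the floor. Of 35 genes with at least 2 probe sets above the floor, all probe sets of 23 had the same sign. In 3 genes a probe set was called in each direction: ATP5IF1, COX4I1 and NDUFA7, where the brightest probe set was higher by 0.44 ± 0.09 and another lower by -0.56 ± 0.08. NDUFA7 is an accessory subunit of the matrix arm. For 46 of the 91 genes the brightest probe set is of a type that can also match related transcripts (its name ends in _x_at or _s_at). Among the 60 subunit genes that keep a probe set when these types are left out, 23 of 28 higher and 7 of 13 lower genes were called in the same direction, and 7 of those called changed sign. The 7 were ATP5IF1, ATP5F1A, ATP5PD, NDUFA11, NDUFS7, NDUFB4 and NDUFB7, each read from another, dimmer probe set in that case. For ATP5F1A, NDUFB4 and NDUFB7 that probe set read under the floor in both lines, so the sign there may be background.

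Differences of the members were also set beside those of their neighbours in the genome. For 80 subunit and assembly factor genes the comparison was with the median difference of the 10 measured genes on each side in the RefSeq order. Pearson's r was 0.56 and Spearman's rho 0.63 over the 80 genes, and 60 had the same sign as their neighbours. Over the 1620 bright genes the same measure gave r = 0.32, and over all 19738 placed genes r = 0.22; genes near each other share neighbours, so the points are not independent, and no test was made. ATP5PF and ATP5PO lie on chromosome 21, of whose 242 measured genes 46.7% were lower and 5.37% higher. NDUFV3, on the same chromosome, differed by -0.21 and was not called. The 20 genes around ATP5PO have a median of -0.23, and those around ATP5PF one of -0.06, with 5 lower and 1 higher. All 4 members on chromosome 3 (UQCRC1, NDUFB4, NDUFB5 and NDUFAF3) were higher, where 33.0% of its genes were higher and 15.2% lower. NDUFAB1, UQCRC2 and NDUFB10 lie on chromosome 16, and 32.2% of its genes were higher. COX4I1, also on chromosome 16, differed by 0.20 and was not called.

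Some members went apart from their surroundings. CYC1 (0.03) and NDUFAF6 (0.32) on chromosome 8 lie among genes with a median of -0.52 and -0.42, and 14 of the neighbours were called lower in each case. ATP5F1D (0.38) on chromosome 19 lies among genes with a median of -0.36. NDUFAF2, whose 1.66 is the largest difference of a subunit or assembly factor, has a neighbour median of 0.07, and ATP5MC1 one of -0.10. UQCRB (-0.63), with 13 lower neighbours, and NDUFAF4 (1.13), with 11 higher ones, moved as their regions did. The part of the region in any single difference was not tested.

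**Figure D5:**
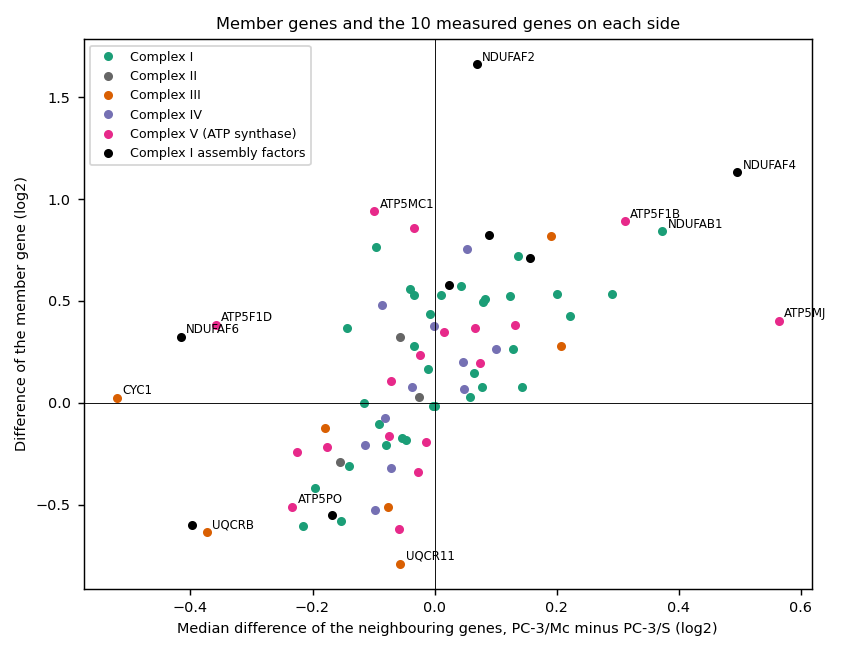
Difference of each subunit gene and assembly factor (vertical axis) against the median difference of the 10 measured genes on each side of it (horizontal axis), both in log2 units with PC-3/S subtracted, coloured by complex. Neighbour medians run between -0.52 and 0.56, and 60 of 80 genes have the same sign as their neighbours.

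The promoters of subunit genes were searched, in the 250 bases before the start and on both strands, for letters bound by factors known to act on respiratory genes. RefSeq promoters on GRCh38.p14 were found for 76 of the 91 members, 62 of them subunits. The letters GCGCATGCG, bound by NRF1, were in 14.5% of the subunit promoters and in 1.8% of all 27305 promoters. The letters CCGGAAGT, bound by ETS factors such as GABP, were in 14.5% against 3.6%. AAGATGGCG, bound by YY1, was in 1.6% against 0.6%, CACGTG, the E-box of MYC and related factors, in 9.7% against 6.5%, and CCAAT in 30.6% against 33.0%. Subunit promoters had a median of 19 CpG dinucleotides and all promoters 11; the letters of NRF1, ETS factors and the E-box contain CpG, and the part of base composition in the matches was not tested.

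No test of the matches by direction was made. The NRF1 letters were in 5 of 29 promoters of higher subunits, 2 of 14 of lower ones and 2 of 19 of those not called, and the ETS letters in 5, 4 and 0. The E-box was in 2, 3 and 1 of them, CCAAT in 5, 5 and 9, and the YY1 letters in 0, 1 and 0. The promoters of ATP5ME, which was higher, and of UQCR11 and ATP5PF, which were lower, are shown because genes called in either direction hold matches. Capitals mark GCGCATGCG and CACGTG in ATP5ME (chr4:674277-674526, minus strand), CACGTG and CCGGAAGT in UQCR11 (chr19:1605463-1605712, minus strand), and CCAAT, GCGCATGCG and AAGATGGCG in ATP5PF (chr21:25735055-25735304, minus strand).
ATP5ME: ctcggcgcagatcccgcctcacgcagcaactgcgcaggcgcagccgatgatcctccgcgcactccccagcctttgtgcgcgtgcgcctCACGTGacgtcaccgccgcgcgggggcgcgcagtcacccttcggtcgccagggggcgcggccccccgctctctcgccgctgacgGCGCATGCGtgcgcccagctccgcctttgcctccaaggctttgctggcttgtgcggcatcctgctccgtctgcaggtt
UQCR11: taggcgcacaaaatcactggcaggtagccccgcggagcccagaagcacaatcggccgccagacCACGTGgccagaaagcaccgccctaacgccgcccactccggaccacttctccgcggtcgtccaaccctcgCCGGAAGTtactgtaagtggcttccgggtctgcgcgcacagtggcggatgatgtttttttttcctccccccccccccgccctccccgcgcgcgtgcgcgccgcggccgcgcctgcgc
ATP5PF: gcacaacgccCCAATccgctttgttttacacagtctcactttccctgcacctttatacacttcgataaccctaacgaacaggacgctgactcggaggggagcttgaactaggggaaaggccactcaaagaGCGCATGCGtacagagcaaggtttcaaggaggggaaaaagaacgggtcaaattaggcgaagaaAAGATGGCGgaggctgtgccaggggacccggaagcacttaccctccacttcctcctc

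Genes that serve the chain without belonging to it were read from 4 further lists. For genes of similar level, 42.3% of those between 8 and 10 were higher and 30.7% lower, and 35.4% and 32.7% of those between 6 and 8. The electron and metabolite carriers, which include the enzymes of ubiquinone synthesis, had 18 of 24 genes higher (75.0%) and 2 lower (8.33%), with a median of 0.55 and a median level of 8.97. PDSS1, a subunit of the enzyme that makes the ubiquinone side chain, read 9.51, 9.49 and 9.44 in PC-3/Mc against 7.65, 7.59 and 7.74 in PC-3/S, which is a difference of 1.82 ± 0.08 with no overlap. COQ9 and COQ3, later factors of the pathway, were higher by 1.52 and 1.21, and COQ5, a methyltransferase of the same pathway, was lower by -0.61. SLC25A4, an ADP/ATP carrier of muscle and heart, was lower by -0.26. CYCS, cytochrome c itself, differed by 0.14 ± 0.09 and was not called.

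The citrate cycle and pyruvate dehydrogenase list had 12 of 23 measured genes higher (52.2%) and 5 lower (21.7%), at a median level of 9.44 and with a median difference of 0.28. Citrate synthase (CS) was higher by 1.26 ± 0.08 and PDHA1, a subunit of pyruvate dehydrogenase, by 1.21 ± 0.08. Enzymes that switch pyruvate dehydrogenase off went both ways: the kinase PDK3 was higher by 2.53 ± 0.10 and PDK2 was lower by -0.68 ± 0.08, and PDP1, the phosphatase that switches it on, was lower by -1.22 ± 0.09. IDH2, the mitochondrial NADP-dependent isocitrate dehydrogenase, was lower by -1.40 ± 0.09.

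Assembly factors outside the rule had 22 of 47 genes higher (46.8%) and 11 lower (23.4%), near the shares of genes of that level (median 9.02), with a median difference of 0.18. SCO2 and COX15, which supply copper and haem a to complex IV, were higher by 1.29 and 1.25, and SLIRP, which stabilises mitochondrial mRNA, by 1.13. PET117 and COX16, factors of complex IV assembly, were lower by -0.91 and -0.62, and LYRM7, a factor for complex III, by -0.68. Of 20 genes of mitochondrial biogenesis and mitochondrial DNA expression, 8 were higher (40%) and 4 lower (20%), at a median level of 7.95 and with a median difference of 0.11. PPARGC1B, a coactivator of respiratory genes, averaged 7.19 ± 0.19 in PC-3/Mc against 5.53 ± 0.10 in PC-3/S, and the difference was 1.66 ± 0.11. TWNK, the mitochondrial DNA helicase, and TFB1M, an rRNA methyltransferase, were higher by 1.09 and 0.68. POLRMT, the mitochondrial RNA polymerase, MTERF3, a regulator of mitochondrial transcription, and GABPA, the ETS subunit of GABP, were lower by -0.57, -0.41 and -0.30. ESRRG, a nuclear receptor of respiratory genes named after its values were seen, fell below the level limit for naming: it read 4.12, 4.21 and 3.80 in PC-3/Mc, under the floor, against 5.99, 5.80 and 5.85 in PC-3/S. The measured difference was -1.84 ± 0.11 (adjusted p = 2.10e-07), at least 1.63-fold lower if the CTNNA1 floor holds. Its PC-3/S mean of 5.88 lay below that of KLK3 (6.73), so this reading may be background too.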

How the data were processed

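RNA of 3 PC-3/Mc and 3 PC-3/S arrays was read from the table of log2 expression values that the authors deposited; their software, background correction and scaling, not given in the sources used here, remain unknown. The log2 scale was inferred from the values (2.59 to 14.45), and any scaling between arrays leaves only relative differences. Arrays were grouped by their titles. After 62 control probe sets were set aside, 41091 probe sets had 1 symbol, 1801 several and 11721 none. Each of 19775 genes was read from its probe set of highest mean. The test was limma's (version 3.58.1, R 4.3.3, lmFit and eBayes, two-sided) over all genes, and over all 54613 probe sets, with Benjamini-Hochberg adjustment. Every difference in the text is PC-3/Mc minus PC-3/S with its SE from the fit, n = 3 arrays per line. The number of arrays limits the precision (median SE of members 0.078). On simulated arrays with known changes (19775 genes per fit), 49 of 50 genes raised by 1 log2 unit and 45 of 50 lowered by 1 were called. At 0.5, only 29 of 50 raised and 23 of 50 lowered genes were called. Far fewer genes were changed there than were called between the lines, which makes the adjusted threshold stricter. The simulated shares therefore do not carry over to the members. In the data, all 32 members that differed by at least 0.5 were called.

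The members and lists were chosen with earlier results of these data known. Named genes were up to 4 called genes per complex and direction with the largest difference, the SDH genes, catalytic subunits, the paralogs and their partners, genes whose probe sets were called both ways, the 5 genes on each side of COX7B2, and up to 3 genes per list and direction; other members were named after their values were seen. CTNNA1 as the floor was likewise chosen after its values were seen. Platform symbols were placed through the RefSeq gene table of GRCh38.p14, whose promoter table gave the sequences. Alternatives covered scaling, the choice of probe set, a filter on dim genes, the variance model, the replicate block, leaving out arrays, and the threshold.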

Additional observations from a re-analysis of the deposited data

How the results depend on the processing

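The lower call of COX7B2 and its sign were the same under every alternative run, while its bound was 29.9-fold with the median of all genes as the floor. Counts moved by over 1.5 times as follows. Complex V had 3 lower genes with arrays centred on their medians, 3 with the mean of a gene's probe sets, and 2 to 5 with single arrays left out. Leaving out probe sets ending in _x_at or _s_at gave complex I 2 lower genes, complex V 5 higher and 3 lower, the assembly factors 3 higher and 1 lower, and 35 higher and 16 lower member probe sets, with fewer genes and probe sets to call. Complex I had 8 lower genes with trend and robust variances. Complex III had 1 or 2 higher genes with single arrays left out. With a difference of at least 0.5 also required, 21 members were higher and 11 lower. The median of all members was 0.08 as deposited, 0.13 with centred arrays and 0.17 without dim genes.

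Among named genes, signs turned for ATP5IF1 (-0.012), NDUFA7 (-0.064) and SDHC (-0.207) with the mean of all probe sets. They also turned without the _x_at and _s_at types for ATP5F1A (0.16), ATP5IF1 (-0.57), ATP5PD (0.069), COX4I1 (-0.45), NDUFA11 (0.016), NDUFS7 (0.14) and SDHC (-0.236). In that case another, dimmer probe set stands for the gene, and that of ATP5F1A read under the floor in both lines. CYC1 (-0.013) and SDHC (-0.05) turned under quantile normalization, and SDHC ran between -0.014 and 0.053 with single arrays left out; neither gene was called in these fits. With a replicate block, complex V had 2 lower genes, and 30 of 33 higher and 12 of 16 lower subunits were called again. Same-numbered arrays were not treated as pairs in the main fit: their deviations over all probe sets correlated at -0.006, -0.214 and -0.309. PC-3/Mc replicate 2 with PC-3/S replicate 3 gave 0.271, and PC-3/Mc replicate 3 with PC-3/S replicate 2 gave 0.257. With 3 arrays per line, such correlations cannot settle whether arrays of the lines share a batch. Of the named single genes' results, 589 were unchanged in call and direction, 43 lost their call, 4 gained one and 14 turned sign. Without detection calls, a level near 5.18 cannot be told from background.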
